A study of Mus musculus with 4 samples.

Results

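Mitochondria import most of their proteins unfolded and fold them inside with their own chaperones, and ATP-driven proteases of the matrix and inner membrane remove those that fail to fold. The chaperonin HSP60 and its lid HSP10, the mitochondrial HSP70 called mortalin with its nucleotide exchange factor, and the proteases LONP1, CLPXP, AFG3L2 and HTRA2 form the core of this system. Their genes are encoded in the nucleus, and some of them are known targets of the heat shock factor HSF1 or of the mitochondrial unfolded protein response. HSP90 inhibitors are known to release HSF1 in the cytosol.

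The RNA of 9 of these genes was followed here, out of 35604 gene rows in each of 2 deposited tables. Their rows were matched by gene symbol: Hspd1, Hspe1, Hspa9, Grpel1, Lonp1, Clpp, Clpx, Afg3l2 and Htra2. The choice of these genes was made with earlier results of these data known. Each symbol matched a single row in each table, all with a usable status, and all 9 reached 1 FPKM or more (fragments scaled to transcript length and library size) in at least 1 library of each table.

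The series compared mouse Schwann cells lacking Nf2, the gene of the tumour suppressor merlin, with and without NXD30001, which its title names as an inhibitor of HSP90. All 4 libraries came from ESC-FC1801, embryonic Schwann cells of the FVB/N strain with the genotype Nf2Flox/Flox, in which a Cre adenovirus had made the Nf2 loss in vitro, so the untreated libraries carry the deletion too. Cells kept in serum-free N2 medium with neuregulin-β1 and forskolin were given NXD30001 at 1 µM, or DMSO alone, over 24 h. Mice carrying an ESC-FC1801 allograft tumour received vehicle or 100 mg/kg NXD30001, dosed 3 times each week over 4 weeks; such a tumour can hold cells of the host as well. The labels used here state no age of the mice, no number of animals behind a library and no time from the last dose. Each group is 1 library, so no value has a replicate error, no test of the treatment was possible, and statements of direction are about these 4 libraries.

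A difference below is the treated value less the untreated one after taking log2(FPKM + 1), which understates the change of low genes. The only error at hand is the one implied by the authors' deposited table, taken as their log fold divided by their statistic; it covers no biological spread. The 95% ranges below come from it and belong to the plain FPKM ratio. The libraries' depth is not given by FPKM, and this error was larger in culture (median 0.80 on the log2 scale over compared genes) than in tumours (0.38). Over the 12676 genes compared in culture the median difference was -0.25, and over the 15550 compared in tumours it was -0.030. At least 2-fold higher were 1603 and lower 3149 of the culture genes, a split that became 2256 and 2331 after centring on the median, 2119 and 2644 with upper quartile scaling, and 113 and 1765 of 4276 genes after rescaling each library to the same FPKM total. The cells carried Schwann cell RNA such as Pmp22 in all 4 libraries, while S100b stayed under 1 FPKM in each of them.

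In culture 6 of the 9 genes were higher with NXD30001 and 3 were lower, while in the tumours all 9 were lower. Rescaling to the same total, which left 4 members in culture, put 1 of those 4, Hspe1, above 0 at 0.42 and so under 2-fold. It turned Hspd1 and Hspa9 to lower. The 4 members then had a median of -0.73, where that of all 4276 compared culture genes was -0.88. That scaling is dominated by the clone-named row AC147020.1, with 68.3% of the DMSO total and 87.2% of the treated total. It kept the pseudocount and minimum of 1 FPKM at levels far lower than before in culture. Its values therefore also carry a stronger pull of the pseudocount toward no change, and the loss of genes under the minimum. The tumour direction held for all 9 under that scaling. Hspe1 and Grpel1 were at least 2-fold higher in the treated cells, where 12.6% of all compared genes were, and none of the 9 was 2-fold lower, where 24.8% of genes were. In the tumours no member passed 2-fold in either direction, where 7.32% of genes were higher and 6.93% lower by that much. The median difference of the 9 genes was 0.51 in culture and -0.33 in tumours, on either side of the medians of all genes. Of all compared genes, 40.6% were above 0 and 59.4% below in culture, and 47.3% and 52.7% in tumours. The authors' deposited table called none of the 9 in either comparison, against calls of 2.75% (higher) and 7.14% (lower) of compared genes in culture, and of 3.14% and 2.45% in tumours.

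**Figure D1:**
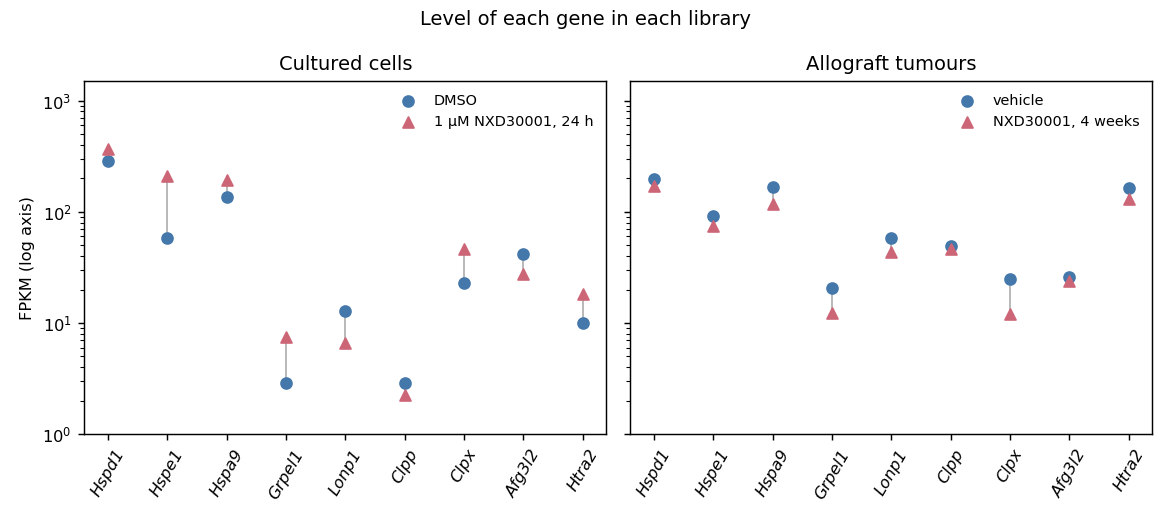
FPKM of the 9 genes (log axis) in the DMSO and NXD30001 culture libraries on the left and in the vehicle and NXD30001 tumour libraries on the right, 1 point per library. Triangles of treated libraries lie above the circles for 6 genes in culture and below them for all 9 in tumours. Hspd1 and Hspa9 turn to lower in culture when totals are made equal, where the median of all compared genes is -0.88. Clpp, Grpel1 and Htra2 sit far lower in the culture table than in the tumour table, and the 2 tables were normalized separately.

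The chaperonin genes Hspd1 and Hspe1 encode HSP60 and HSP10, which act as a barrel and its lid. They lie head to head on chromosome 1, and the deposited tables give both the same locus, from 55134679 to 55148151 (mm9). The RefSeq promoter table (build GRCm38.p6) holds windows from 250 bases before to 50 after a start for 6 of the 9 genes, and in it 1 of the Hspd1 starts lies 216 bases upstream of the Hspe1 start and the other 95 bases downstream of it. All windows of the table were searched for heat shock element units, the inverted GAA and TTC triplets, each pair 2 bases apart, that HSF1 is known to bind. The search used GAANNTTC or TTCNNGAA for 2 units, GAANNTTCNNGAA or TTCNNGAANNTTC for 3, and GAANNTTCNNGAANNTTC or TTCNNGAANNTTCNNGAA for 4, each of which reads alike on both strands or is the other strand of its partner, and a longer match contains the shorter ones.

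A run of 4 units lies 89 to 72 bases before the Hspe1 start, and the same bases read from the other strand lie 144 to 127 bases before the upstream-lying Hspd1 start. Only 8 of the 32851 windows of the table, 0.0244%, hold such a run. The lines below show it for the 6 genes that have a row in the deposited tables, with the units and their spacers in capitals and the neighbouring bases in lower case, so that the run shared by the chaperonin pair can be set beside the others:
Hspe1, chr1:55088053-55088082, plus strand: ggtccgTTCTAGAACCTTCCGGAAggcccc
Hspd1, chr1:55088053-55088082, minus strand: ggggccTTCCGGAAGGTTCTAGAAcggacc
Chordc1, chr9:18292257-18292286, plus strand: caaccgGAACGTTCGGGAAAATTCctgaag
Kctd18, chr1:57970219-57970248, minus strand: ctccggGAAAATTCAGGAACGTTCttgggg
Arpc2, chr1:74236267-74236290, plus strand: TTCTGGAATATTCGCGAAaggggc
Fam149a, chr8:45382401-45382430, minus strand: aatgagTTCCAGAACATTCTGGAAccgatg
In GENCODE M21, which uses the same build, the chaperonin run falls in the first exon of 1 of 3 Hspd1 transcripts, past the first exon of another, and outside the remaining one and the Hspe1 transcripts.

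**Figure D2:**
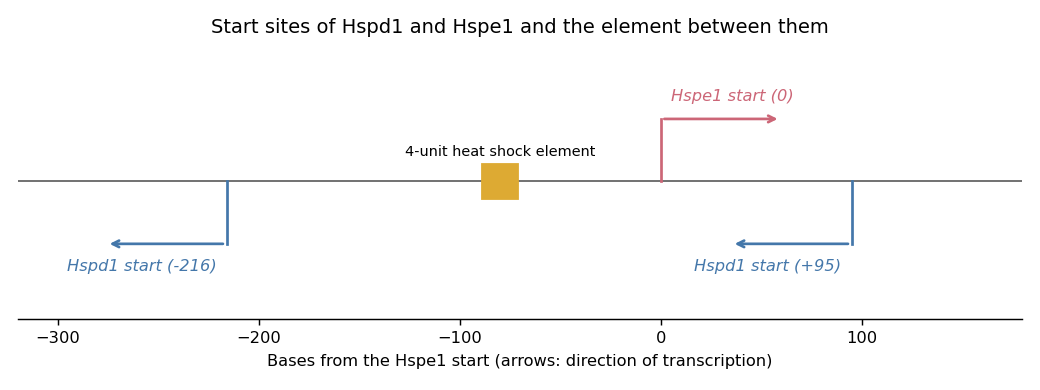
Map of the stretch between the chaperonin genes in bases from the Hspe1 start, with arrows in the direction of transcription and the run of 4 heat shock element units as a box. The box spans -89 to -72, between the Hspd1 start at -216 and the Hspe1 start.

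Hspe1 was at 57.6 FPKM in DMSO cells and 208.9 FPKM in treated cells, a ratio of 3.63 with a 95% range of 1.29 to 10.2. Its difference of 1.84 was the largest of the 9 in culture and higher than that of 95.9% of all compared genes; with equal totals it was 0.42, under 2-fold. It was also the sole member whose range in culture left out 1; such ranges lay above 1 for 7.28% and below 1 for 16.9% of the genes that have one. In the tumours Hspe1 was at 92.5 FPKM in the vehicle tumour and 75.0 FPKM in the treated one, a ratio of 0.811 (range 0.518 to 1.27).

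Hspd1 was the most abundant of the 9 in every library. Its levels were 288 FPKM in DMSO cells and 364 FPKM in treated cells, a ratio of 1.26 (range 0.492 to 3.25); with equal totals its culture difference was -0.84. The vehicle and treated tumours held 197 and 170.4 FPKM, a ratio of 0.864 (range 0.626 to 1.19). The level of Hspd1 was thus 5.01 times that of Hspe1 in DMSO cells and 1.74 times in treated cells, against 2.13 and 2.27 times in the tumours. Because the tables place both genes at the same locus and the labels do not say if strand was kept, reads from a stretch where the transcripts overlap cannot be assigned with certainty.

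The other 4 genes with a 4-unit run had smaller differences than Hspe1, and were not tested against it. Chordc1, which encodes an HSP90 co-chaperone, was at 82.4 and 151 FPKM in culture (difference 0.87) and at 20.9 and 21.0 FPKM in tumours. Kctd18, Arpc2 and Fam149a had culture differences of -0.42, -0.51 and -0.25. A run of 3 units was present in 0.603% of all windows, and 47 of the genes compared in culture had one. Of these 12.8% were higher by 2-fold or more and 19.1% lower, beside 11.8% and 22.6% of the 7099 compared genes with a window, so these shares lay near the background. Among the other members with a window, Grpel1, Clpx and Lonp1 had no match, and Clpp had a single pair of units just after its start, in 15.1% of windows a match of that size. It reads, with the pair in capitals:
Clpp, chr17:56990291-56990310, plus strand: ttgtagTTCCGGAAgccaag

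**Figure D3:**
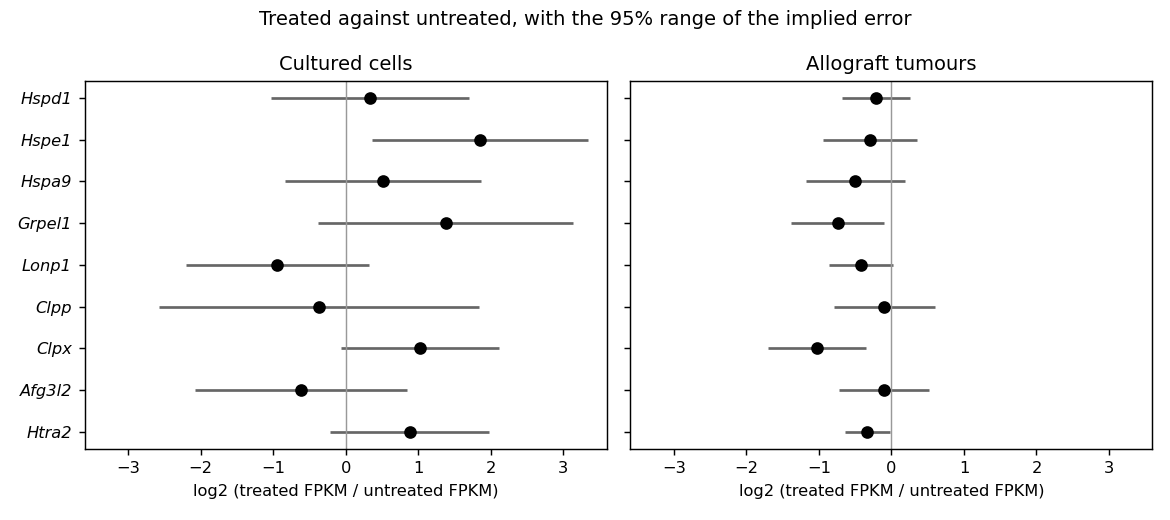
Log2 ratio of treated to untreated FPKM for the 9 genes (points) with the 95% range of the error implied by the authors' table (lines), in culture on the left and tumours on the right. In culture the range of Hspe1 alone lies off 0; in tumours those of Grpel1, Clpx and Htra2 lie below it.

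Hspa9 encodes mortalin, the HSP70 of the matrix, which pulls proteins through the import channel and folds them. The gene lies on chromosome 18 from 35097293 to 35113998 (mm9), a locus it shares with a pair of small nucleolar RNA rows listed at 0. It was at 136 FPKM in DMSO cells and 195 FPKM in treated cells, a ratio of 1.43 (range 0.560 to 3.65), and -0.62 as a difference with equal totals. In the tumours it was at 166 and 117 FPKM, a ratio of 0.707 (range 0.441 to 1.13). Both ranges include 1, so neither ratio was told from 1 by the implied error.

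Grpel1 encodes the nucleotide exchange factor that resets mortalin after each cycle. Its locus on chromosome 5, from 36807647 to 36826934, is shared with a clone-named row at 3.59 and 2.31 FPKM in culture and 9.62 and 8.25 FPKM in tumours. Grpel1 was near the bottom of the 9 in culture, at 2.87 FPKM in DMSO cells and 7.47 FPKM in treated cells, a ratio of 2.60 (range 0.770 to 8.77). In the tumours it was at 20.7 and 12.4 FPKM, a ratio of 0.597 (range 0.382 to 0.935). The treated tumour library was thus lower beyond the implied error, and the treated cells were higher within it. Hspa9 stood at 47.4 times the level of Grpel1 in DMSO cells and 26.1 times in treated cells, against 8.0 and 9.47 times in the tumours.

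Clpx and Clpp encode the unfoldase and the peptidase that join into the CLPXP protease of the matrix. Clpx (chromosome 9 from 65142067 to 65178465, shared with a clone-named row at or under 1 FPKM) was at 23.0 FPKM in DMSO cells and 46.7 FPKM in treated cells, a ratio of 2.03 (range 0.953 to 4.33). Its difference of 0.99 falls just short of 2-fold through the pseudocount of 1 FPKM. In the tumours it went the other way, from 24.7 to 12.1 FPKM, a ratio of 0.490 (range 0.306 to 0.783). Its tumour difference of -0.97 was the lowest of the 9, with 7.19% of all compared genes lower still, and its q-value in the authors' deposited table, 0.0884, was the smallest of the 9 in either comparison.

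Clpp (chromosome 17 from 57129748 to 57135610, with no other row at its locus) was at 2.89 and 2.24 FPKM in culture, a ratio of 0.777 whose range of 0.168 to 3.59 was the widest of the members on the log scale (implied error 1.13). In the tumours it was at 49.5 and 46.2 FPKM, a ratio of 0.933 (range 0.576 to 1.51). The level of Clpx was 7.96 times that of Clpp in DMSO cells and 20.8 times in treated cells. In the tumours it was 0.499 and 0.262 times, so Clpp RNA exceeded Clpx RNA there and the reverse held in culture.

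Lonp1 encodes the main ATP-driven protease of the matrix, which degrades oxidized proteins. It has its locus to itself on chromosome 17, from 56753724 to 56766310. Lonp1 was lower with NXD30001 in both settings, at 12.8 and 6.68 FPKM in culture, a ratio of 0.521 (range 0.217 to 1.25), and at 58.5 and 43.8 FPKM in tumours, a ratio of 0.748 (range 0.551 to 1.01). The culture difference of -0.85 was the lowest of the 9 there. Neither range excluded 1.

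Afg3l2 encodes a subunit of the m-AAA protease of the inner membrane, and Htra2 a serine protease of the intermembrane space that can bind inhibitor of apoptosis proteins once released. Afg3l2 (chromosome 18 from 67564419 to 67608830, alone at its locus) was at 41.9 and 27.4 FPKM in culture, a ratio of 0.654 (range 0.237 to 1.80), and at 25.8 and 24.1 FPKM in tumours, a ratio of 0.933 (range 0.607 to 1.43). Both ranges include 1. Htra2 (chromosome 6 from 82984167 to 83007674) was at 9.91 and 18.2 FPKM in culture, a ratio of 1.84 (range 0.858 to 3.95). In the tumours it was at 164 and 130.4 FPKM, a ratio of 0.794 (range 0.642 to 0.984), the narrowest range of the 9. Htra2 shares its locus with Loxl3, at 10.8 and 35.2 FPKM in culture and 95.5 and 95.8 FPKM in tumours, and with Aup1, at 2.55 and 3.12 FPKM and at 62.6 and 70.7 FPKM. In culture both neighbours were thus higher, as Htra2 was, and in the tumours they were level or higher where Htra2 was lower. The part of the shared locus in the Htra2 values was not tested.

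Across the tumours, then, the ranges of 3 members lay below 1, namely Grpel1, Clpx and Htra2, where 8.12% of genes with a range did and 8.49% lay above. A pattern of higher in culture and lower in tumours was shown by 6 of the 9, against 21.5% of the 11559 genes compared in both tables. The 6 members that were higher in culture are also the 6 whose locus is shared with another row, and the 3 lower ones have a locus of their own. Over all compared genes 40.1% of those at shared loci and 40.9% of those at their own were above 0 in culture; the part of shared loci in the members' values was not tested.

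**Figure D4:**
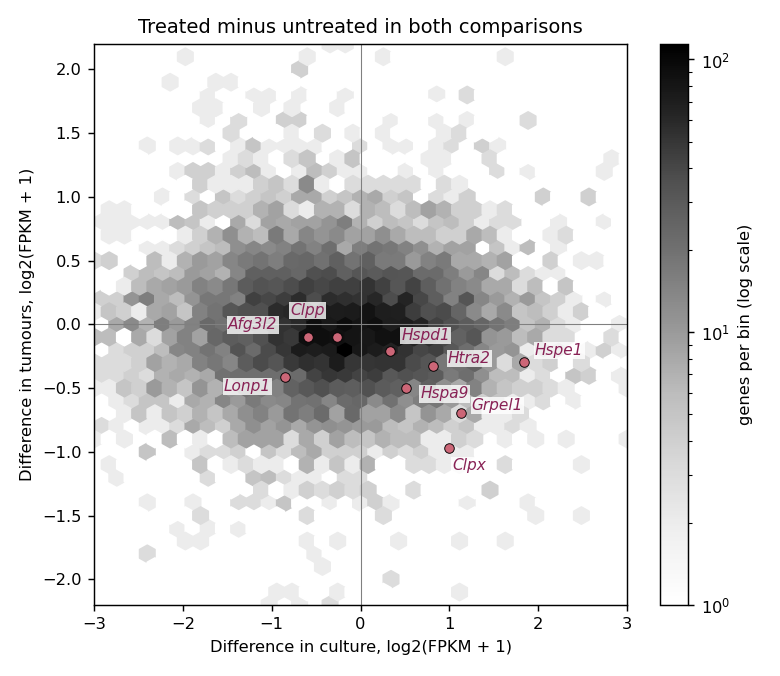
Difference in culture (horizontal axis) against difference in tumours (vertical axis), each as treated less untreated after log2(FPKM + 1), for the 9 genes (labelled points) over all genes compared in both tables (grey bins, darker with more genes). Points for 6 genes lie in the lower right of the plot, higher in culture and lower in tumours, with Hspe1 farthest right at 1.84 and Clpx lowest at -0.97. With equal totals Hspd1 and Hspa9 are lower in culture, where the median of all compared genes is then -0.88.

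The order of levels was not the same in the 2 tables. In DMSO cells it ran Hspd1, Hspa9, Hspe1, Afg3l2, Clpx, Lonp1, Htra2, Clpp and Grpel1, with Clpp and Grpel1 close, at 2.89 and 2.87 FPKM. In the vehicle tumour it ran Hspd1, Hspa9, Htra2, Hspe1, Lonp1, Clpp, Afg3l2, Clpx and Grpel1, where Hspa9 and Htra2 were close, at 166 and 164 FPKM, as were Afg3l2 and Clpx, at 25.8 and 24.7 FPKM. With 1 library each, neighbours this close cannot be ordered. Htra2 stood above 46.9% of the compared genes in DMSO cells and above 93.7% in the vehicle tumour, and Clpp above 22.8% and 77.5%. These places within a library were used because the tables were normalized separately. The summed level of the 9 genes was 575 FPKM in DMSO cells and 877 FPKM in treated cells, and 799 and 631 FPKM in the tumours.

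Other genes of mitochondrial folding were mostly lower in treated cells. Over all compared culture genes 59.4% were below 0 and 24.8% at least 2-fold lower, with a median of -0.25. Of 8 other mitochondrial chaperone and assembly genes compared, 6 were lower and 2 higher, with a median of -0.74 and 3 at least 2-fold lower. These 3 were Clpb, a disaggregase gene, at 5.65 and 0.830 FPKM and called in the authors' deposited table, Hscb, a J-domain protein gene of iron-sulphur cluster assembly, at 26.0 and 6.48 FPKM, and Trap1, the mitochondrial HSP90, at 19.1 and 8.96 FPKM. Their tumour differences were -0.49, 0.28 and 0.037, and the median of the list there was 0.037 (-0.062 with equal totals) over 9 genes, none of them past 2-fold. Trap1 shares its locus with Dnase1, at 0.643 and 0.593 FPKM in culture, and with a clone-named row at 6.05 and 0 FPKM.

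Of 13 other mitochondrial proteases and processing peptidases, 6 were above 0 and 7 below in both comparisons, with medians of -0.076 and -0.17, the first turning to 0.17 after centring and 0.082 with upper quartile scaling. Pmpcb, a subunit of the peptidase that removes import signals, was higher in both settings, at 49.3 and 182 FPKM in culture (difference 1.86, implied error 0.67) and at 100.3 and 353 FPKM in tumours (difference 1.80, implied error 0.29), the latter called in the authors' deposited table. Its partner subunit gene Pmpca was at 32.9 and 37.3 FPKM and at 57.1 and 42.8 FPKM. Mipep, Pitrm1 and Oma1, which encode further peptidases, had culture differences of -1.87, -1.55 and -1.06 and tumour differences of -0.33, 0.24 and -0.55. Pitrm1 shares its locus with Pfkp, at 52.9 and 11.1 FPKM in culture.

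Protein import genes were spread around 0 in culture (22 compared, 12 above and 10 below, median 0.097, or -0.75 with equal totals). They were mostly lower in tumours (16 of 22 below, median -0.27), where 52.7% of all compared genes were below 0. Dnajc19, which encodes a J-domain partner of mortalin at the import channel, was lower in both, at 36.3 and 15.2 FPKM and at 17.9 and 7.68 FPKM. Its related gene Dnajc15 was at 4.52 and 2.31 FPKM in culture and at 37.1 and 14.4 FPKM in tumours. None of the import genes was called in the authors' deposited table. It called 2.75% (higher) and 7.14% (lower) of all compared genes in culture, and 3.14% and 2.45% in tumours. Timm13 and Tomm6 had culture differences of 2.25 and 1.36, with implied errors of 1.18 and 5.29. Dnajc19 and Tomm6 share their loci with other rows.

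Genes of known substrates and partners were divided in both settings, with 8 of 14 above 0 in culture (median 0.10, or -0.75 with equal totals) and 5 of 14 in tumours (median -0.20). Diablo, which like Htra2 encodes a protein that binds inhibitors of apoptosis, was at 21.3 and 7.55 FPKM in culture and 35.8 and 30.8 FPKM in tumours. Xiap, an inhibitor bound by HTRA2, was lower in both, at 32.3 and 18.7 FPKM and at 31.2 and 18.7 FPKM. Ccdc109a, an older symbol of the mitochondrial calcium channel gene Mcu, was at 0.283 and 1.67 FPKM in culture, near the minimum level.

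Genes of mitochondrial content and biogenesis were mostly lower in treated cells, with 12 of 14 below 0, a median of -0.89 and 5 at least 2-fold lower. Of all compared genes 59.4% were below 0 and 24.8% at least 2-fold lower. The authors' deposited table called 3 of the list lower, and 7.14% of all compared genes. These 3 were Ppargc1a and Ppargc1b, coactivators of mitochondrial biogenesis, at 76.0 and 6.17 FPKM and at 4.52 and 0.233 FPKM, and Polg, the mitochondrial DNA polymerase, at 9.56 and 0.104 FPKM. Polg shares its locus with Fanci, at 17.8 and 2.11 FPKM in culture. Sdha, a respiratory chain subunit gene, was at 45.0 and 19.1 FPKM. In the tumours this list had 7 genes on either side of 0 and a median of -0.0071 (0.023 after centring), with Polg at 49.3 and 95.8 FPKM. Of the 9 members 6 were higher in culture and 3 lower, with a median of 0.51. With equal totals the culture medians were -1.12 for this list, -0.73 for the 4 members left and -0.88 for all compared genes. The list and the members were not tested against each other.

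Among stress response factors, the 5 compared in culture were all higher (median 0.94, or -0.46 with equal totals), where 40.6% of all compared genes were. Hsf1 was at 3.92 and 8.46 FPKM and Atf4 at 59.5 and 83.8 FPKM. Ubl5, linked to the mitochondrial unfolded protein response in worms, was at 205 and 474 FPKM with an implied error of 1.35; the symbol stands on 2 rows with identical values, so its reads cannot be assigned to either copy with certainty. Atf5, another factor of that response, had no usable estimate in culture and was at 238 and 135 FPKM in tumours. In the tumours 2 of 7 were higher and the median was -0.040.

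Set by compartment, the culture medians were 1.69 for 8 cytosolic heat shock genes, 0.51 for the 9 mitochondrial genes and 0.075 for 10 endoplasmic reticulum chaperone genes. With equal totals these were 0.25, -0.73 and -0.86, where the median of all compared genes was -0.88. All 8 cytosolic genes compared were higher and 5 at least 2-fold, where 12.6% of all compared genes were. They were led by Hsph1 (3.33, with an implied error of 133, too wide for a usable range) and Hspa8 (3.00, implied error 0.40), with Cryab at 1.97 and Dnajb1 at 1.71. The list has 12 genes, and Hspa1a, Hspa1b, Hspb1 and Hspb8 stayed under 1 FPKM in culture and were left out. Hspa1a was at 0.061 and 0.65 FPKM, Hspa1b at 0.049 and 0 FPKM, and Hspb1 and Hspb8 were listed at 0. With no minimum level the cytosolic culture median was 0.74. In the tumours the medians were 0.046 over 12, -0.33 over 9 and -0.23 over 10 genes. The cytosolic tumour median spans opposite calls in the authors' deposited table, Hsph1 lower at 137 and 67.7 FPKM and Cryab higher at 157 and 370 FPKM. Like Hsph1, Hspa5, the reticulum HSP70, was higher in culture and lower in tumours, at 316 and 1004 FPKM in culture and 1376 and 789.8 FPKM in tumours, and the authors' deposited table called it in both.

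**Figure D5:**
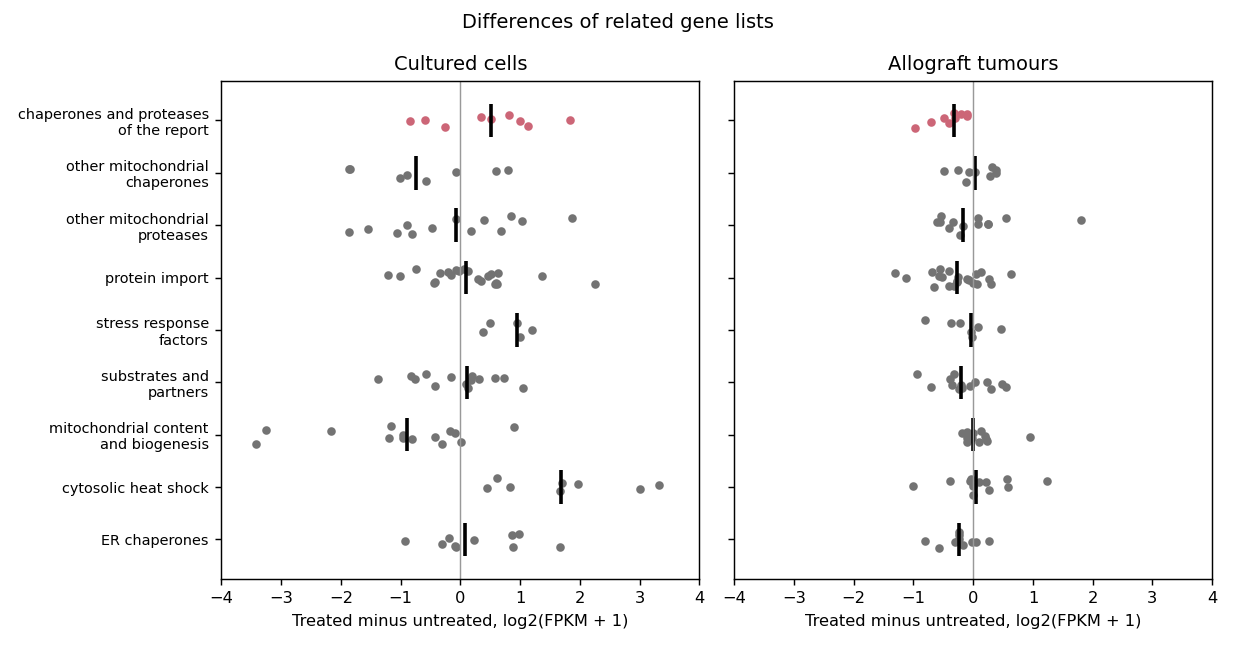
Difference, treated less untreated after log2(FPKM + 1), for each gene of 9 lists (points) with the list median (black bar), in culture on the left and tumours on the right. The 9 genes of the report, in red, lie on both sides of 0 in culture with a median of 0.51 and all below 0 in tumours with a median of -0.33. With equal totals the culture median is -0.73, beside -0.88 over all compared genes.

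Other features of the libraries moved beside these values. In culture, 7 of 7 compared cell cycle genes were lower, with their summed level going from 1711 to 139.6 FPKM and Mki67, Aurkb, Ccna2 and Ccnb1 at -5.21, -5.15, -4.96 and -4.45 as differences, and 8 Schwann cell markers summed to 855 and 3396 FPKM. In the tumours the summed level of 8 Schwann cell markers went from 230.3 to 719 FPKM, with all 8 at least 2-fold higher and S100b under 1 FPKM. Of all compared tumour genes 7.32% were at least 2-fold higher and 52.7% below 0. The summed level of 6 endothelial markers went from 68.9 to 23.4 FPKM, that of 7 macrophage markers from 359 to 216 FPKM and that of 6 fibroblast markers from 2974 to 2266 FPKM, with 6, 7 and 5 of them lower. Of the adipocyte markers Fabp4 was at 65.8 and 12.5 FPKM and Cfd at 2.67 and 0.992 FPKM. Adipoq, at 0.818 and 0.228 FPKM, and Plin1, at 0 and 0.0995 FPKM, stayed under 1 FPKM, and Ucp1 was listed at 0 in both tumours. Of the skeletal muscle markers Mylpf was at 3.31 and 22.9 FPKM (implied error 2.09) and Acta1 at 2.51 and 2.43 FPKM, with Ckm listed at 0. In bulk tissue, fewer cells of a type and less RNA per cell cannot be told apart, and the part of these markers in the members' values was not tested.

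By likeness of pattern, measured as the distance in the plane of the culture and tumour differences over 3508 genes at 10 FPKM or more in all 4 libraries, the genes nearest to Hspe1 were Ewsr1 (1.88 and -0.28), Wnk1 (1.80 and -0.38) and Arl5a (1.74 and -0.27). Nearest to Clpx were Cmpk1 (0.95 and -0.99), Smn1 (1.03 and -1.07) and Atp5j2 (0.86 and -0.93), and nearest to Grpel1 were Golga3, Baz2b and Llph at distances of 0.09, 0.12 and 0.13. For Hspd1 they were Tram1, Sel1l and Ireb2, and for Hspa9 D15Ertd621e, Anapc4 and Ndufs6. For Lonp1 they were H2-K1, Rpl6 and Pbrm1, for Clpp Plp2, Rps28 and Actr3, for Afg3l2 Cbx1, Sgms1 and H3f3a, and for Htra2 Phf13, Rap1b and Eif4ebp1, all within 0.07 of their member. Each pattern rests on 2 differences, 1 in each table.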

How the data were processed

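Per the submitters' processing notes, reads were handled with CASAVA, TopHat 1.2.0, Cufflinks 1.0.2 and Cuffdiff on the mouse build mm9; no annotation or strand setting is named there. The authors deposited FPKM values for the 2 libraries of each table, with a natural log fold, a statistic and a q-value per gene. Some deposited q-values exceed 1 (up to 2.05), so they serve here only as scores of the authors' comparison.

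Compared genes have status OK and reach 1 FPKM in at least 1 library; differences used a pseudocount of 1 FPKM, in Python 3.11.15, after the functions were checked on simulated data. No test was run with 1 library per group. The implied error is the authors' log fold over their statistic, on the log2 scale, times 1.96 for a 95% range. Deposited starts count from 0 (end minus start equalled the GENCODE M21 gene length at 10580 of 19955 single-row loci, and 1 less at 268), so starts are printed 1 higher. Symbols in several rows entered lists with their highest row.

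The members and lists were chosen with earlier results of these data known. Named beside the members are list genes past 2-fold, at most the 4 largest a list, and the 3 nearest patterns; Pmpca, Xiap, Hsf1, Atf4, Atf5 and the genes with 4 units were named after their values were seen. The search for 4 units was added after the windows were seen, and 2 alternatives were added after the files were seen. Each group came from the sample titles, since the labels' sample type calls all 4 cultured cells.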

Additional observations from a re-analysis of the deposited data

Results flagged for a closer look

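For 6 genes the treated library lay above the untreated one in culture and below it in the tumours. The difference between the 2 settings was not tested, since each group is 1 library and the tables were normalized separately. On the log2(FPKM + 1) scale the culture difference exceeded the tumour difference by 2.14 for Hspe1 (1.84 and -0.30), by 1.96 for Clpx (0.99 and -0.97), by 1.83 for Grpel1 (1.13 and -0.70), by 1.15 for Htra2 (0.82 and -0.33), by 1.01 for Hspa9 (0.51 and -0.50) and by 0.55 for Hspd1 (0.34 and -0.21). With each library rescaled to the same FPKM total, Hspe1 was at 0.42 in culture and -0.39 in tumours, and Hspd1 and Hspa9 were below 0 in both. Medians of all compared genes were then -0.88 in culture and -0.12 in tumours. Grpel1, Clpx and Htra2 were under the minimum level in culture with that scaling. Over the 11559 genes compared in both, 21.5% showed this pair of signs.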

How the results depend on the processing

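Tumour differences of all 9 genes stayed below 0 under each of the 10 alternatives that gave a value. In culture the signs of single members held except when FPKM were rescaled to the same total in each library, where Hspd1 became -0.84 and Hspa9 -0.62. That rescaling is dominated by the clone-named row AC147020.1, which held 68.3% of the DMSO total and 87.2% of the treated total. It left 4 members, with 1 (Hspe1, at 0.42) above 0, 0 at least 2-fold higher and a median of -0.73. The median of all compared culture genes was then -0.88. List medians in culture were -0.32 (other chaperones), -0.59 (other proteases), -0.75 (import), -0.46 (stress factors), -0.75 (substrates), 0.25 (cytosolic), -0.86 (reticulum) and -3.06 (cell cycle). The pseudocount and the minimum stayed at 1 FPKM after this rescaling, which left 4276 culture genes compared. These medians thus mix the change of scale with a stronger pull of the pseudocount toward 0 and with the loss of low genes. In tumours medians were -0.062 (other chaperones) and -0.11 (content), beside -0.12 over all compared genes. Without genes at shared loci only 3 members were left, Lonp1, Clpp and Afg3l2, with medians of -0.60 in culture and -0.10 in tumours, 0 above 0 and 0 at least 2-fold higher in culture; list medians were -0.64 (other proteases) and 0.87 (reticulum) in culture and 0.28 (other chaperones) and -0.0097 (cytosolic) in tumours.

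Members at least 2-fold higher in culture numbered 2, where 12.6% of all compared genes were. The count was 1 with a pseudocount of 5 FPKM (7.16% of all genes). It was 3 (Clpx added) with 0.1 FPKM or no pseudocount (15.5% and 14.5% of all genes). After centring on all genes or with upper quartile scaling it was 4, where 17.8% and 16.6% of all genes were. After centring, 2256 genes were at least 2-fold higher in culture and 2331 lower, against 1603 and 3149. Over all genes the counts higher and lower were 908 and 1694 with a pseudocount of 5 FPKM, 113 and 1765 with equal totals and 954 and 1865 without shared loci in culture; in tumours, 451 and 424, 544 and 645, 555 and 532, and 734 and 675 with a minimum of 5 FPKM, against 1139 and 1077. In tumours 1 member, Clpx, was 2-fold lower with a pseudocount of 0.1 FPKM or none, where 9.36% and 7.79% of all genes were. Centring gave culture medians of 0.17 (other proteases), 0.35 (import), 0.35 (substrates) and -0.64 (content), and 0.023 (content) in tumours. Upper quartile scaling gave 0.082 (other proteases) and 0.014 (content, tumours). A minimum of 5 FPKM gave 0.18 (other proteases) and -0.29 (substrates) in culture. No minimum gave 0.74 (cytosolic, culture) and 0.00032 (content, tumours). The cell cycle median was -5.05 with a pseudocount of 0.1 FPKM, -3.81 with 5 FPKM and -5.06 with none. For these list medians the cause was not tested. Against the 500 genes nearest in transcript GC content all 18 member differences kept their sign, with Hspe1 at 2.05 and Clpx at 1.34 in culture. No paired analysis was possible because each group has 1 library.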
